A study of Mus musculus with 6 samples.

Results

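The 8 genes described here are Igfbp4, Pdlim4, Amigo2, St8sia6, Rnf130, Rnf32, Atp8b4 and Tlr7, of 38216 gene symbols measured. They were chosen by their RNA level, which was lower in at least 1 pool of ICOS+ CD4+ T cells than in ICOS- cells, so their differences from ICOS- cells are given as a description, with no test. The cells came from spleens of C57BL/6 mice carrying the IL21-VFP reporter at postnatal day 28, an age of 28 days. ICOS, a costimulatory receptor, appears in quantity on T cells after activation, and VFP marks cells that transcribe Il21, the gene of a cytokine of follicular helper T cells. Sorting gave the pools ACT IL21 (CD4+ VFP+ ICOS+), ACT (CD4+ VFP- ICOS+) and N (CD4+ VFP- ICOS-). All 3 pools carry the reporter allele. Each pool was sequenced as 2 libraries, and the labels do not say that these came from separate animals, so p-values measure the spread between libraries, which may be technical. All 8 genes passed the filter on low values and were among the 13311 genes tested. Levels are TPM, transcript abundance scaled to a fixed total per library, a unit that allows for transcript length and keeps no record of read depth.

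The genes belong to different families, and in T cells they are less studied than the classical naive T cell genes. Igfbp4 encodes a secreted protein that binds insulin-like growth factors and keeps them from their receptor. St8sia6 encodes a sialyltransferase, an enzyme that extends sugar chains with sialic acid. Amigo2 encodes a leucine-rich repeat adhesion protein of the cell surface, and Pdlim4 a PDZ and LIM domain protein that binds the actin cross-linker alpha-actinin. Rnf130 encodes a membrane-spanning RING ubiquitin ligase, related to the ligase GRAIL (gene Rnf128) known from T cell anergy. Rnf32 encodes a RING domain protein known mainly from testis. Atp8b4 encodes a P4-ATPase, a family whose members move phospholipids from the outer to the inner leaflet of membranes. Tlr7 encodes an endosomal receptor for single-stranded RNA, best known in B cells and plasmacytoid dendritic cells. Naive T cells recirculate through lymphoid organs, and activation lowers many of the genes that mark them.

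The genes are protein-coding and lie on 5 chromosomes of the build GRCm38 (GENCODE M21). Igfbp4 (chromosome 11, 99041244 to 99054392, plus strand), Pdlim4 (chromosome 11, 54054928 to 54069014, minus strand) and Rnf130 (chromosome 11, 50025346 to 50104758, plus strand) share a chromosome. St8sia6 (13651021 to 13794064, minus strand) and Atp8b4 (126320973 to 126500674, minus strand) are on chromosome 2. Amigo2 (97244125 to 97247287, minus strand) is on chromosome 15, Rnf32 (29195992 to 29228457, plus strand) on chromosome 5 and Tlr7 (167304929 to 167330558, minus strand) on chromosome X. Amigo2 overlaps Pced1b on the opposite strand and Rnf32 overlaps the pseudogene Gm7420 on its own strand, which leaves both values uncertain, as the strand setting is not given in the sources used here.

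RefSeq promoter windows (GRCm38.p6, 250 bases before to 50 after a transcript start) were matched for 7 of the 8 genes, all but Tlr7. The 250 bases before the start are shown for 5 genes, so that promoters of genes with the same and with different patterns of RNA can be set side by side. Igfbp4 and St8sia6 were low in both ICOS+ pools, Rnf130 and Atp8b4 in ACT IL21, and Rnf32 in ACT. Capitals mark every match, on either strand, to CTTTGA (the core read by TCF and LEF factors), GTAAACA (FOXO), CACCC (KLF), TGTGGT (RUNX), GGGCGG (the GC box) or TATAAA (the TATA box). The capitals that end the Rnf130 sequence begin a GGGCGG match, on the other strand, that runs past the printed part. The sequences run 5′ to 3′ along the gene.
Igfbp4, chr11:99040994-99041243, plus strand: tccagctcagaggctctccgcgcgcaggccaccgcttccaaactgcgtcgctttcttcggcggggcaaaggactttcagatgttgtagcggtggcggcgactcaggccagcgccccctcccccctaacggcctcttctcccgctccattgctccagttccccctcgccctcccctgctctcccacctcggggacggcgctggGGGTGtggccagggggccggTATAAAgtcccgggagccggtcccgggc
St8sia6, chr2:13793521-13793770, minus strand: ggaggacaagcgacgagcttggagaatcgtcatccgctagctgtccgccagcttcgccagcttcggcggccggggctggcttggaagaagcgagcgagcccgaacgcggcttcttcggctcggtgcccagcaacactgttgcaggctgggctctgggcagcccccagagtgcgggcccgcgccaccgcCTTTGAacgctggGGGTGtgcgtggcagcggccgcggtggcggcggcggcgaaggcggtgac
Rnf130, chr11:50025081-50025330, plus strand: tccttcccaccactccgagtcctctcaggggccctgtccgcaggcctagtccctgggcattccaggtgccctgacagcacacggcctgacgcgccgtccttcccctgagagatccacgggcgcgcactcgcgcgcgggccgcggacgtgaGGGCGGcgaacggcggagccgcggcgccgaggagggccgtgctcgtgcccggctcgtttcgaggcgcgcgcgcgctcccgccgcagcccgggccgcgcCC
Atp8b4, chr2:126491554-126491803, minus strand: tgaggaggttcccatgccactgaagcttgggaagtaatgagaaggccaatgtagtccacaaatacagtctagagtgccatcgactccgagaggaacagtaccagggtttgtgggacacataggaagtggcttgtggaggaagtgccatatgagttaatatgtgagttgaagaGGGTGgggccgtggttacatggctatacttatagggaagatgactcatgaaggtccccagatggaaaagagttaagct
Rnf32, chr5:29195743-29195992, plus strand: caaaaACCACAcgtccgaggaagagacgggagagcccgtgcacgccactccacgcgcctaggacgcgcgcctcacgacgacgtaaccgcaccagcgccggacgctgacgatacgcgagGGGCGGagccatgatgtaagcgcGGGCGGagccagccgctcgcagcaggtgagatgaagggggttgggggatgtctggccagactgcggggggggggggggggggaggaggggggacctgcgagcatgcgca
The St8sia6 and Atp8b4 windows start from RefSeq transcripts that begin inside the GENCODE gene.

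Over the full windows of 300 bases, CACCC was found in 5 of the 7 genes (Igfbp4, Pdlim4, Amigo2, St8sia6 and Atp8b4), beside 57.5% of all 32851 windows. GGGCGG was found in 5 of 7 (Pdlim4, Amigo2, St8sia6, Rnf130 and Rnf32), beside 35.7%. St8sia6 alone held CTTTGA (16.0% of all windows), Rnf32 alone TGTGGT (16.8%) and Igfbp4 alone TATAAA (13.6%), while GTAAACA (3.65%) was found in none of the 7. None of the 25 matches overlapped another. These are matches of letters, not sites. Rnf130 and Atp8b4, which had the same pattern of RNA, had windows of different make-up, although the Atp8b4 window starts from a transcript that begins inside the GENCODE gene. The Rnf130 window held 78.0% G and C with 49 CG pairs, the Atp8b4 window 48.0% with 4 CG pairs, and the median window 52.7% with 7.

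Igfbp4, St8sia6, Amigo2 and Pdlim4 were below 50% of their N level in both ICOS+ pools. Igfbp4, the most abundant of the 8 genes in N, was at 6.87 and 8.46 TPM in ACT IL21, 15.8 and 12.3 TPM in ACT, and 101.2 and 103.1 TPM in N. Every ICOS+ library was far below both N libraries, and both ACT IL21 libraries were below both ACT libraries. The means of Igfbp4 were 7.50% of N in ACT IL21 and 13.7% of N in ACT, with log2 fold changes on log2(TPM + 1) of -3.58 ± 0.25 and -2.79 ± 0.25 (SE). St8sia6 kept more of its level than the other 3. It was at 17.3 and 18.2 TPM in ACT IL21, 24.9 and 22.2 TPM in ACT, and 80.5 and 93.1 TPM in N. The groups did not overlap, and the log2 fold changes of St8sia6 were -2.23 ± 0.20 for ACT IL21 and -1.84 ± 0.20 for ACT against N.

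Amigo2 was at 3.05 and 2.30 TPM in ACT IL21, 3.82 and 1.98 TPM in ACT, and 29.2 and 31.8 TPM in N. The ICOS+ pools overlapped each other and lay at 8.77% (ACT IL21) and 9.51% (ACT) of N. The log2 fold changes of Amigo2 were -3.11 ± 0.40 for ACT IL21 and -3.05 ± 0.40 for ACT against N. Pdlim4 was the least even between libraries, at 0.54 and 2.40 TPM in ACT IL21, 1.16 and 0.80 TPM in ACT, and 28.5 and 16.2 TPM in N. The ACT libraries of Pdlim4 lay within the range of the ACT IL21 ones, and all 4 ICOS+ libraries were below both N libraries. Its log2 fold changes against N were -3.30 ± 0.53 in ACT IL21 and -3.51 ± 0.53 in ACT, and at these low ICOS+ levels the pseudocount sets part of the value (-4.09 and -4.34 with a pseudocount of 0.1).

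**Figure D1:**
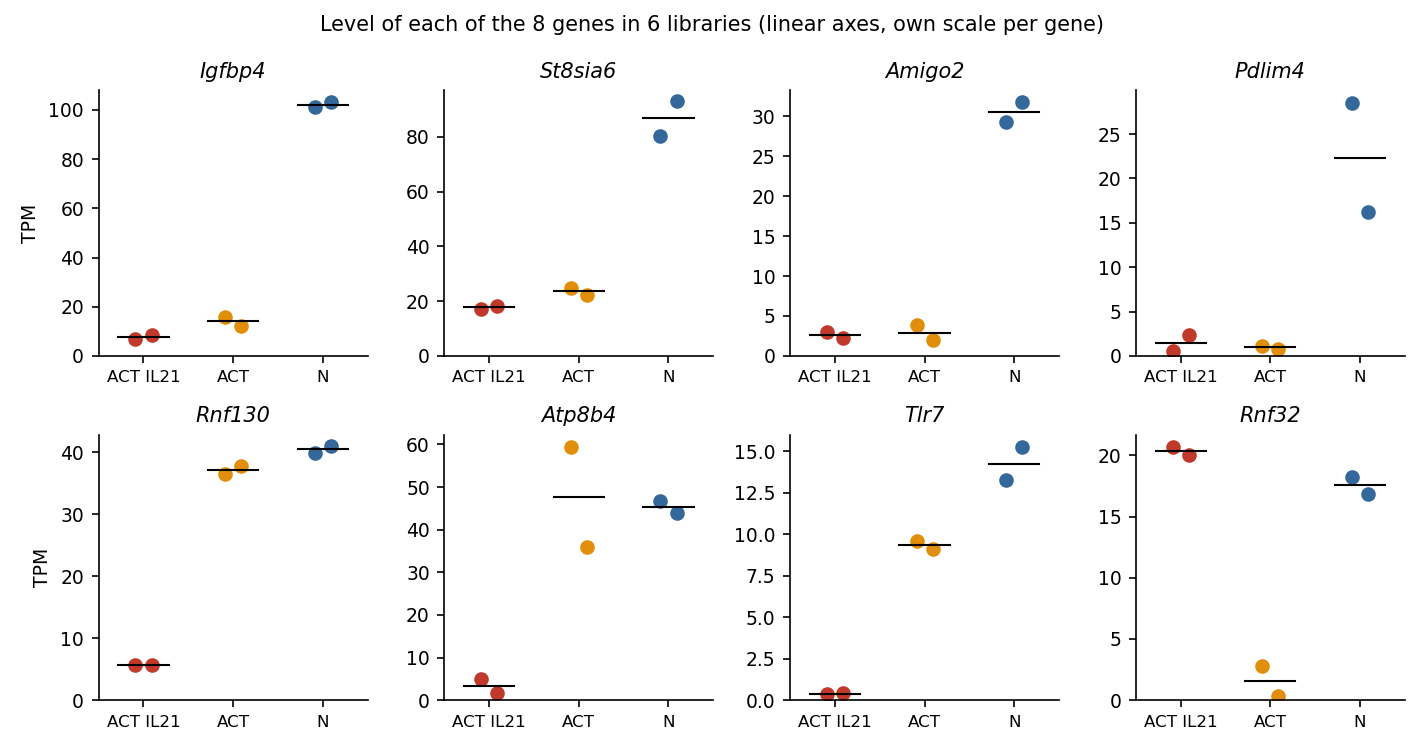
Level in TPM (linear axes from 0, own scale per gene) of the 8 genes in the 2 libraries of ACT IL21, ACT and N, in that order from left to right; points are libraries and bars are means. The first 4 panels are low in both ICOS+ pools, Rnf130, Atp8b4 and Tlr7 are low in ACT IL21, and Rnf32 is low in ACT.

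Rnf130, Atp8b4 and Tlr7 were below 50% of N in ACT IL21 and above it in ACT. Rnf130 was at 5.62 and 5.73 TPM in ACT IL21, 36.5 and 37.8 TPM in ACT, and 39.95 and 41.1 TPM in N. Libraries of a pool lay within 2 TPM of each other, and ACT stayed at 91.7% of N while ACT IL21 was at 14.0%. The log2 fold changes of Rnf130 against N were -2.64 ± 0.23 in ACT IL21 and -0.12 ± 0.23 in ACT. Atp8b4 was at 4.89 and 1.79 TPM in ACT IL21, 59.4 and 35.9 TPM in ACT, and 46.8 and 43.9 TPM in N. The ACT libraries of Atp8b4 spread on both sides of N, and both ACT IL21 libraries were below all others. Its log2 fold changes against N were -3.51 ± 0.40 in ACT IL21 and 0.03 ± 0.40 in ACT.

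Tlr7 had the lowest level of the 8 genes in N and the lowest listed share of it left in ACT IL21. Its levels in ACT IL21, under 1 TPM, cannot be told from 0. Tlr7 was at 0.35 and 0.42 TPM in ACT IL21, 9.58 and 9.09 TPM in ACT, and 13.2 and 15.2 TPM in N. The pools did not overlap, with ACT between ACT IL21 (2.70% of N) and N, at 65.6% of N. Its log2 fold changes against N were -3.46 ± 0.37 in ACT IL21 and -0.56 ± 0.37 in ACT. The first understates the ratio of the TPM values, because both ACT IL21 libraries were below the pseudocount of 1 TPM, and it was -4.89 with a pseudocount of 0.1.

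Rnf32 had the opposite pattern, low in ACT alone. It was at 20.7 and 20.0 TPM in ACT IL21, 2.77 and 0.35 TPM in ACT, and 18.3 and 16.8 TPM in N. Both ACT libraries were below all others, and both ACT IL21 libraries were slightly above both N libraries. The means of Rnf32 were 116% of N in ACT IL21 and 8.89% of N in ACT, with log2 fold changes of 0.20 ± 0.49 and -3.04 ± 0.49. The ACT value depends on the library, at -3.78 without ACT replicate 1 and -2.30 without ACT replicate 2. Among the 7594 tested genes with a mean of at least 10 TPM in N, 88 (1.16%) were below 50% of N in both ICOS+ pools, 122 (1.61%) in ACT IL21 alone and 199 (2.62%) in ACT alone, so each of the 3 patterns has other members.

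ACT IL21 and ACT differ in the reporter, and the rule that picked the genes does not name this comparison, but it used the same ICOS+ libraries, so the test is not independent of the choice. Rnf130, Atp8b4 and Tlr7 were lower and Rnf32 was higher in ACT IL21 than in ACT, by limma with p-values adjusted over all genes. These are 4 of the 8 genes, beside 1.95% of all genes called in either direction (1.15% lower and 0.796% higher), and nothing is read from the excess because a gene low in 1 ICOS+ pool was free to enter the list. The log2 fold change of Rnf130 was -2.51 ± 0.23 (adjusted p = 0.00338), that of Atp8b4 -3.54 ± 0.40 (adjusted p = 0.00666), that of Tlr7 -2.90 ± 0.37 (adjusted p = 0.0110) and that of Rnf32 3.24 ± 0.49 (adjusted p = 0.0204). For each of the 4, both libraries of ACT IL21 were on one side of both ACT libraries. Each of these calls ended without ACT IL21 replicate 1 (adjusted p = 0.0624 for Rnf130 and Atp8b4, 0.103 for Tlr7 and 0.204 for Rnf32) and without ACT IL21 replicate 2 (adjusted p = 0.0861, 0.111, 0.125 and 0.211 for Rnf130, Atp8b4, Tlr7 and Rnf32), with fold changes of the same sign. The Tlr7 call also ended without any other single library (adjusted p = 0.0590 to 0.0693), the Atp8b4 call without ACT replicate 1 (0.0693) and the Rnf32 call without N replicate 1 or 2 (0.0902 and 0.0896).

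The 4 genes that were low in both ICOS+ pools did not pass between them. The log2 fold change of ACT IL21 over ACT was -0.79 for Igfbp4 (95% interval -1.37 to -0.22, adjusted p = 0.185), although its libraries did not overlap. It was -0.39 for St8sia6 (-0.865 to 0.08, adjusted p = 0.425), -0.05 for Amigo2 (-0.97 to 0.86, adjusted p = 0.968) and 0.21 for Pdlim4 (-1.005 to 1.43, adjusted p = 0.891). The intervals are unadjusted, and those of Amigo2 and Pdlim4 leave room for differences of more than 0.8 on the log2 scale either way.

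**Figure D2:**
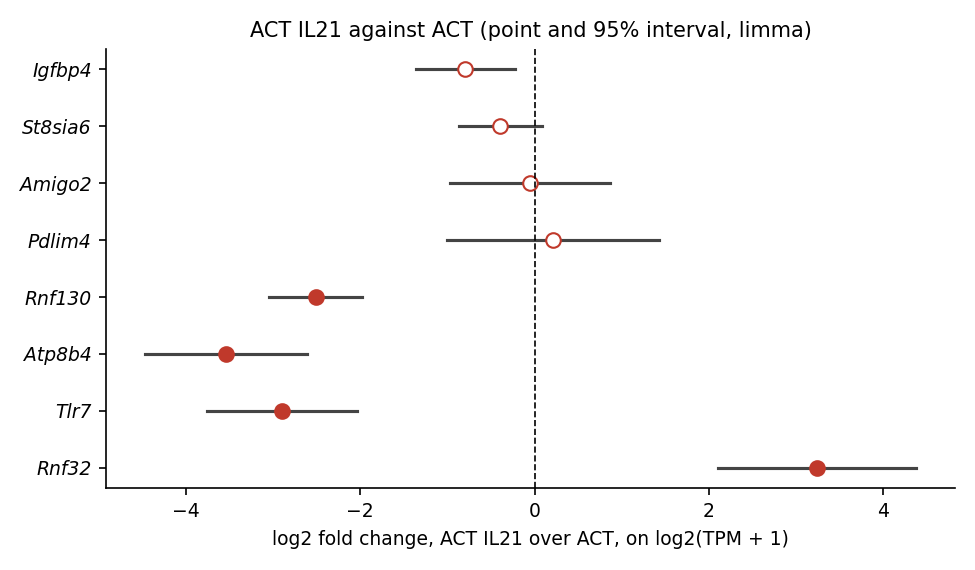
Log2 fold change of ACT IL21 over ACT on log2(TPM + 1) for the 8 genes, with unadjusted 95% intervals from limma; filled points passed an adjusted p of 0.05. Rnf130, Atp8b4 and Tlr7 lie between -2.51 and -3.54, Rnf32 lies at 3.24, and the other 4 points lie between -0.79 and 0.21.

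The order of the 8 levels differed between the pools. In N it ran Igfbp4 (102.2 TPM), St8sia6 (86.8), Atp8b4 (45.4), Rnf130 (40.5), Amigo2 (30.5), Pdlim4 (22.3), Rnf32 (17.6) and Tlr7 (14.2), and the Pdlim4 libraries overlapped those of Rnf32. In ACT Atp8b4 (47.6 TPM) and Rnf130 (37.1) led, with overlapping libraries, and in ACT IL21 Rnf32 (20.3) and St8sia6 (17.7) led, without overlap. Igfbp4 stood at the 35.1st percentile of level among tested genes in ACT IL21, the 48.5th in ACT and the 90.1st in N.

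The genes whose pattern over the 6 libraries was most like each of the 8 were found by the root mean square difference in log2(TPM + 1) after subtracting each gene's mean, among 8330 genes with a mean of at least 5 TPM. The nearest to St8sia6 were Pdk1, a pyruvate dehydrogenase kinase gene (0.195), and Bach2, a transcriptional repressor gene (0.199). The nearest to Igfbp4 was the interferon-gamma receptor gene Ifngr2 (0.52), to Amigo2 the AMP deaminase gene Ampd1 (0.465) and to Pdlim4 the myosin gene Myo10 (0.68). The nearest to Rnf130 was the integrin gene Itgb3 (0.365), to Atp8b4 the interleukin-2 receptor alpha chain gene Il2ra (0.67) and to Tlr7 the membrane protein gene Itm2a (0.60), followed by the kinase gene Pak1 (0.61). Ikzf4, a transcription factor gene, was also among the nearest 3 for Rnf130 (0.37) and Atp8b4 (0.71), and Lrrc32 for Atp8b4 (0.74) and Tlr7 (0.62). Lrrc32 encodes a surface protein that holds latent TGF-beta. Il2ra, Ikzf4 and Lrrc32 are also in the list of regulatory T cell markers described below. The nearest to Rnf32 was Spsb1 (0.53), at 8.16 TPM in ACT IL21, 0.74 in ACT and 7.36 in N. With 6 libraries in 3 pools these are descriptions of shared pool means.

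Among the other genes of their families, most did not pass in any comparison, and no family fell as a whole. The background is 1.95% of genes called in either direction for ACT IL21 against ACT, 5.09% for ACT IL21 against N and 5.58% for ACT against N (4.15% higher and 1.43% lower). In the sialyltransferase list, 20 genes other than St8sia6 were tested. They include, besides sialyltransferase genes, genes that supply sialic acid (Cmas, Nans, Gne and Slc35a1) and the sialidase genes Neu1 and Neu3. Against N, none of the 20 passed in ACT IL21, while St8sia4 and St3gal6 rose and St8sia1 fell in ACT. St8sia1, the GD3 synthase gene, was at 37.0 TPM in ACT IL21, 16.6 in ACT and 60.8 in N (log2 fold change of ACT over N -1.81, adjusted p = 0.00170), and it passed in ACT against N with each library left out. St3gal6 was at 21.7 TPM in ACT IL21, 80.7 in ACT and 21.7 in N (1.85 for ACT over N, adjusted p = 0.00374, but 0.0658 without N replicate 1). St8sia4, a polysialyltransferase gene, rose by 0.88 in ACT (adjusted p = 0.0418, but 0.0690 to 0.292 with any 1 library left out). The most abundant member of this list, St6gal1, was at 277 TPM in ACT IL21, 197 in ACT and 231 in N and did not pass in any comparison. Between ACT IL21 and ACT, St8sia1 was higher (1.11, adjusted p = 0.0305, but 0.0797 to 0.209 with any 1 library left out) and St3gal6 lower (-1.87, adjusted p = 0.0103, but up to 0.133 without either library of ACT IL21 or of ACT). The median log2 fold change of the 20 was 0.23 for ACT IL21 and 0.35 for ACT against N, beside 0.10 and 0.02 over all genes tested.

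Among 7 membrane-spanning RING ligase genes other than Rnf130, Rnf43 rose in both ICOS+ pools and Znrf3 fell in ACT IL21. Both encode ligases that remove Wnt receptors from the cell surface. Rnf43 was at 49.6 TPM in ACT IL21, 25.8 in ACT and 7.67 in N (log2 fold change 2.53, adjusted p = 0.00198, for ACT IL21 over N, and 1.62, adjusted p = 0.0114, for ACT over N). These Rnf43 calls ended without ACT IL21 replicate 1 (adjusted p = 0.0623) and, in ACT, without ACT replicate 1, N replicate 1 or N replicate 2 (up to 0.114). Znrf3 was at 12.1 TPM in ACT IL21, 29.5 in ACT and 41.8 in N (-1.71 for ACT IL21 over N, adjusted p = 0.00636, but up to 0.116 without either library of ACT IL21 or of N). Znrf3 was also lower in ACT IL21 than in ACT (-1.23, adjusted p = 0.0467, but 0.112 to 0.239 with any 1 library left out), and it was the 1 tested gene of the 7 whose pools had the order of those of Rnf130. Rnf128 was at 3.74 TPM in ACT IL21, 1.07 in ACT and 0.245 in N and did not pass. Rnf167, the most abundant, was at 174, 137 and 161 TPM in ACT IL21, ACT and N. The median log2 fold change of the 7 was 0.32 for ACT IL21 and 0.40 for ACT against N.

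Among 12 flippase genes other than Atp8b4, including the accessory subunit genes Tmem30a and Tmem30b, Atp8a2 alone passed. It was at 2.24 TPM in ACT IL21, 48.5 in ACT and 1.27 in N (log2 fold change 4.45 for ACT over N, adjusted p = 0.000509, past the threshold with each library left out, and -3.94 for ACT IL21 over ACT, adjusted p = 0.00324, but up to 0.0861 without either ACT IL21 library). Atp8b4 and Atp8a2 were thus both high in ACT and low in ACT IL21, and differed in N. Atp11b, the most abundant member, was at 342 TPM in ACT IL21, 323 in ACT and 520 in N and did not pass. The median of the 12 was 0.28 for ACT IL21 and 0.12 for ACT against N.

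Of the 5 other Toll-like receptor genes tested, none passed in any comparison. The most abundant, Tlr1, was at 91.6 TPM in ACT IL21, 75.7 in ACT and 100.4 in N, against 0.385, 9.34 and 14.2 TPM for Tlr7 in the same pools. None of the 24 tested genes of endosomal Toll-like receptor trafficking and signaling was called lower in any comparison. Against N, Ctsb rose in ACT IL21, and Unc93b1, Hsp90b1, Ctsb and Tab2 rose in ACT. Ctsb, the gene of the lysosomal protease cathepsin B, was at 123 TPM in ACT IL21, 104 in ACT and 50.7 in N (1.26, adjusted p = 0.00692, for ACT IL21 over N and 1.01, adjusted p = 0.0162, for ACT over N, but up to 0.105 and 0.158 with 1 library left out). Tab2, a signaling adaptor gene, rose by 0.63 in ACT (adjusted p = 0.0403, but 0.0976 to 0.283 with any 1 library left out). Unc93b1, which carries Tlr7 to endosomes, was at 5.61 TPM in ACT IL21, 7.94 in ACT and 0.890 in N (2.24 for ACT over N, adjusted p = 0.0218, but 0.0511 to 0.212 with any 1 library left out). The adaptor gene Myd88 was at 24.1, 26.7 and 15.1 TPM in ACT IL21, ACT and N and did not pass. The chaperone gene Hsp90b1 was the most abundant of the list, at 554 TPM in ACT IL21, 932 in ACT and 483 in N (0.95 for ACT over N, adjusted p = 0.0106, but up to 0.113 with 1 library left out). The median log2 fold change of this list was 0.38 for ACT IL21 and 0.54 for ACT against N. For ACT IL21 over ACT, where Tlr7 was lower, the list median was -0.275, beside 0.076 over all genes tested.

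Other than Igfbp4, 7 genes of insulin-like growth factor binding and signaling were tested. Against N, the receptor gene Igf1r rose in ACT IL21 and Igf2 rose in ACT. Igf1r was at 17.7 TPM in ACT IL21, 4.76 in ACT and 5.04 in N (1.64 for ACT IL21 over N, adjusted p = 0.0369, but up to 0.316 with 1 library left out). Igf2 was listed at 0 in both ACT IL21 libraries and averaged 5.79 TPM in ACT and 0.420 in N (2.32 for ACT over N, adjusted p = 0.0330, and -2.76 for ACT IL21 over ACT, adjusted p = 0.0310), and both calls ended with any 1 library left out. Igf2r, the most abundant, was at 18.3, 27.7 and 30.4 TPM in ACT IL21, ACT and N. The other IGF-binding protein gene tested, Igfbp7, did not exceed 2.08 TPM on average in any pool, and Igfbp1, Igfbp2 and Igfbp3 were listed at 0 in all 6 libraries. Among 10 PDZ, LIM and actinin genes other than Pdlim4, Actn1, which encodes an alpha-actinin, was at 78.6 TPM in ACT IL21, 33.2 in ACT and 136 in N. Actn1 fell in ACT (-2.003, adjusted p = 0.000774, past the threshold with each library left out too) and in ACT IL21 (-0.78, adjusted p = 0.0468, but up to 0.312 with 1 library left out), and was higher in ACT IL21 than in ACT (1.22, adjusted p = 0.0163, but 0.0670 to 0.176 with any 1 library left out). Pdlim1 fell in ACT (-1.265, adjusted p = 0.0342, but up to 0.232 with 1 library left out). Lims1, the most abundant, was at 180 TPM in ACT IL21, 128 in ACT and 123 in N. None of the 4 tested adhesion genes other than Amigo2 passed, and Amigo1 and Amigo3 averaged below 2.5 TPM in every pool. The medians of ACT IL21 and ACT against N were -0.38 and -0.07 for the growth factor binding and signaling list. They were 0.43 and 0.01 for the PDZ and LIM list, and 0.01 and -0.24 for the adhesion list.

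**Figure D3:**
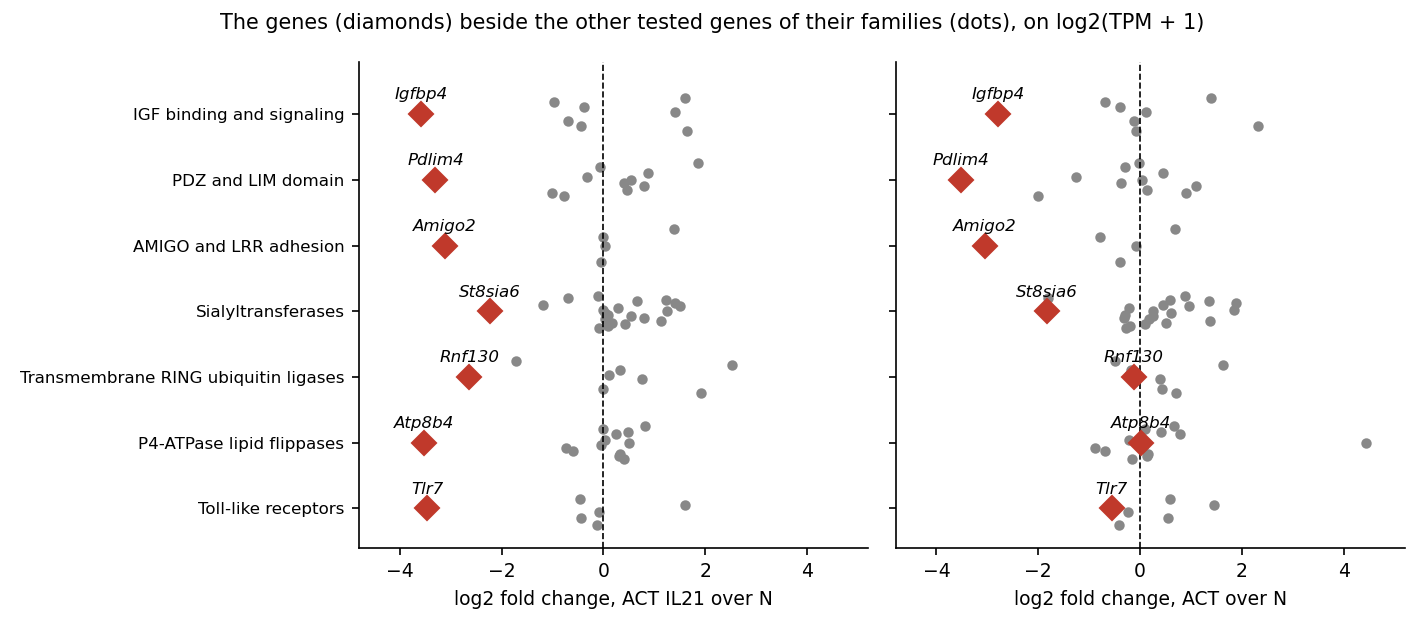
Log2 fold changes on log2(TPM + 1) of ACT IL21 (left) and ACT (right) over N for the tested genes of 7 family lists. Red diamonds are the genes described here other than Rnf32, which is in none of the 7 lists. Grey dots are the other members. On the left each diamond lies below every dot of its family; on the right Rnf130 and Atp8b4 lie among the dots, Tlr7 (-0.56) and St8sia6 (-1.84) lie just below the lowest dot, and the grey dot at 4.45 is Atp8a2.

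The pools also differed in markers of T cell states and of other cells, whose part in the levels of the 8 genes was not tested. In these bulk pools fewer cells of a type and less RNA per cell cannot be told apart. The 23 naive T cell genes summed to 4244 and 4480 TPM in ACT IL21, 3444 and 3575 in ACT, and 8064 and 7581 in N. In this list 12 genes fell and none rose in ACT IL21 against N, and 19 fell and 1 rose in ACT, with median log2 fold changes of -0.78 and -1.45, beside 0.10 and 0.02 over all genes. With each library left out in turn, 3 of these 12 calls in ACT IL21 and 12 of these 20 in ACT held in every fit. Of all genes tested 1.26% were lower in ACT IL21 and 1.43% in ACT than in N. Between ACT IL21 and ACT, 8 of the 23 were higher, among them Tcf7 and S1pr1, which like Rnf32 were lowest in ACT, and 4 were lower (Il7r, Ly6c1, Txk and Ccr9). All 12 of these calls between the ICOS+ pools ended without ACT IL21 replicate 1 and also without ACT IL21 replicate 2 (adjusted p up to 0.145 for Tcf7, 0.126 for S1pr1 and 0.311 over the 12 with any 1 library left out). The list also holds Actn1 and Ccr7, and Ccr9 was the gene that rose in ACT. Tcf7, a transcription factor gene, was at 1022 TPM in ACT IL21, 394 in ACT and 1085 in N.

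The 10 regulatory T cell markers, a list added after values had been seen, summed to 260 and 308 TPM in ACT IL21, 762 and 726 in ACT, and 231 and 234 in N. Over all genes tested, 3.82% were higher and 1.26% lower in ACT IL21 than in N, and 4.15% and 1.43% in ACT. Against N the regulatory list went both ways in ACT IL21, with 3 genes higher (Ikzf2, Nrp1 and Capg) and 4 lower (Foxp3, Il2ra, Ikzf4 and Lrrc32). In ACT 7 of its genes were higher and none lower. Of these calls, 2 of 7 in ACT IL21 and 3 of 7 in ACT held with each library left out in turn. Nrp1, a surface receptor gene, was at 47.2 TPM in ACT IL21, 39.6 in ACT and 6.88 in N (2.61 for ACT IL21 over N, adjusted p = 0.000816). Foxp3, their lineage factor gene, was at 2.13 TPM in ACT IL21, 58.7 in ACT and 20.8 in N, and it was lower in ACT IL21 than in ACT (-4.27, adjusted p = 0.00212, but 0.0621 without ACT IL21 replicate 1). None of the 10 was listed at 0 in both libraries of a pool. The 14 natural killer and NKT cell markers summed to 233 and 191 TPM in ACT IL21, 1162 and 1077 in ACT, and 65.1 and 71.6 in N, and Klre1 was listed at 0 in both libraries of ACT IL21 and of N, and Ncr1 in both of ACT IL21. Against N, 3 genes of this list rose (Klrb1c, Gzmb and Nkg7) and 2 fell (Klrd1 and Prf1) in ACT IL21. In ACT 9 rose and none fell, and Prf1 was highest in N, at 7.60 TPM. Not all of these calls held with each library left out in turn. ACT thus held the most RNA of both marker lists, and Rnf32, unlike the other 7 genes, was lowest there with no overlap with either other pool. Between ACT IL21 and ACT, 6 of the 10 regulatory T cell markers were lower in ACT IL21 and none higher. Of the 13 tested natural killer and NKT markers, 7 were lower and none higher. Over all genes tested, 1.15% were lower and 0.796% higher. These list calls, too, did not hold with each library left out in turn. Rnf130, Atp8b4 and Tlr7 were also lower in ACT IL21 than in ACT, and a link to these markers was not tested.

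The 14 B cell markers summed to 16.5 and 22.2 TPM in ACT IL21, 7.76 and 7.25 in ACT, and 4.79 and 3.89 in N. Cd22 alone made up 13.1 and 17.5 TPM of the sum in ACT IL21, 1.62 and 3.68 in ACT, and 0 and 0.07 in N. The other 13 summed to 3.36 and 4.75 TPM in ACT IL21, 6.14 and 3.57 in ACT, and 4.79 and 3.82 in N, and the pools overlapped. Among those listed at 0 in both libraries of a pool were Pax5, Ebf1, Fcrla and Vpreb3 in ACT IL21, Ms4a1, Pax5, Fcer2a, Fcrla and Spib in ACT, and Ms4a1, Pax5 and Fcrla in N. Of the plasmacytoid dendritic cell markers, Siglech, Klk1, Cox6a2 and Cd209d were listed at 0 in all 6 libraries, and the 11 genes summed to 80.6 and 80.7 TPM in ACT IL21, 158 and 135 in ACT, and 83.6 and 56.5 in N. Ccr9, which naive T cells also express, made up most of the ACT sum, at 87.1 TPM on average, and the other 10 summed to 69.1 and 68.7 TPM in ACT IL21, 64.8 and 54.0 in ACT, and 70.8 and 45.5 in N. The 15 myeloid markers summed to 58.8 and 60.8 TPM in ACT IL21, 73.6 and 63.0 in ACT, and 41.3 and 35.0 in N, and Cd14, S100a8 and S100a9 were listed at 0 in all 6 libraries. Cst3 alone made up most of these sums, at 48.2 and 51.0 TPM in ACT IL21, 68.3 and 51.8 in ACT, and 31.6 and 26.5 in N. The CD8 T cell markers Cd8a and Cd8b1 summed to 9.88 and 3.41 TPM in ACT IL21, 5.59 and 7.41 in ACT, and 27.0 and 19.03 in N, with Cd8a listed at 0 in both ACT libraries. Cd8a did not exceed 0.36 TPM in any library, so these sums are nearly all Cd8b1, which did not pass in any comparison. The sort markers followed the labels. Icos was at 185 and 227 TPM in ACT IL21, 254 and 241 in ACT, and 35.7 and 31.9 in N, and Il21 at 44.5 and 51.9 TPM in ACT IL21, 0 and 1.26 in ACT, and 0 in both N libraries. Cd4 was between 236 and 567 TPM in every library, with means of 550 in ACT IL21, 252 in ACT and 337 in N. By limma it was higher in ACT IL21 than in ACT (1.13, adjusted p = 0.0103) and than in N (0.71, adjusted p = 0.0301). Both of these Cd4 calls ended in some fits with 1 library left out.

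**Figure D4:**
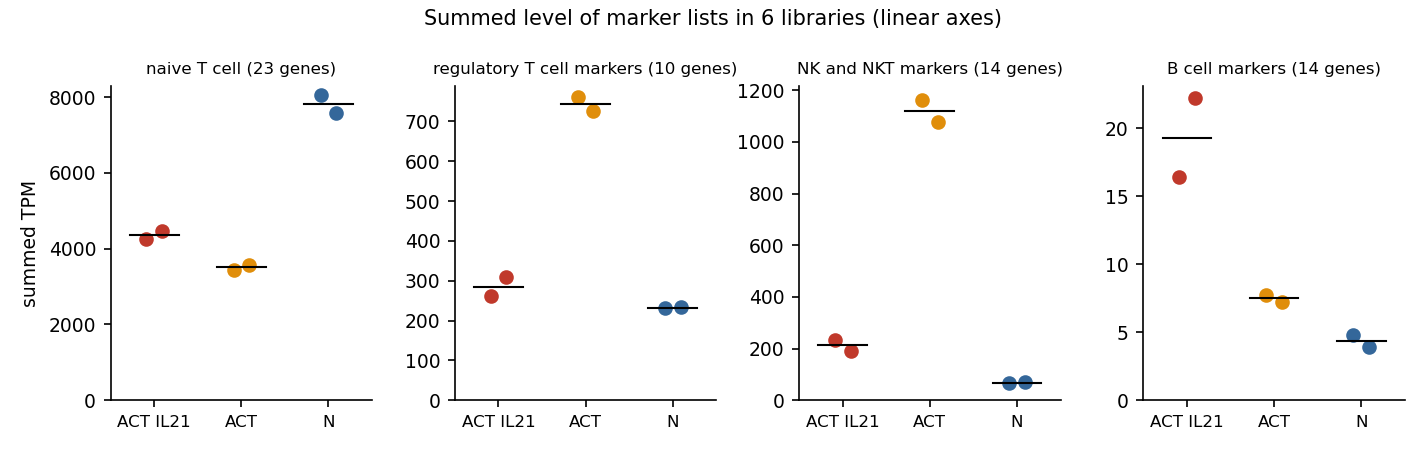
Summed TPM (linear axes from 0) of naive T cell, regulatory T cell, natural killer and NKT, and B cell marker genes in the 2 libraries of ACT IL21, ACT and N, in that order from left to right; points are libraries and bars are means. The naive list is highest in N, the regulatory and natural killer lists are highest in ACT, and the B cell list, at 22.2 TPM or less, is highest in ACT IL21 through Cd22 (13.1 and 17.5 TPM there), without which the pools overlap.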

How the data were processed

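The deposited table holds gene-level TPM in 1 column per library, made by the authors with Trimmomatic, Bowtie, RSEM and GRCm38, per the submitters' processing notes. The sources used here do not give versions, annotation or strand setting. Poly-A RNA was amplified with a NuGEN Ovation kit, per the labels' protocols. TPM has a fixed total, so abundant transcripts move the others, and depth is unknown: no counting interval is given. RSEM shares reads among similar genes by estimation.

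Of 38355 entries, 139 with a repeated symbol were summed. The 13311 genes that reached 1 TPM in 2 or more of the 6 libraries were tested with limma 3.58.1 (R 4.3.3) on log2(TPM + 1), with 1 model over 3 pools, an intensity trend, two-sided tests and Benjamini-Hochberg adjustment at 0.05. The model had 3 residual and 4.841 prior degrees of freedom, and was tested on simulated data. With 2 libraries a pool, an exact permutation test cannot go below p = 0.333. Levels are means over 2 libraries.

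The genes and lists were chosen with earlier results of these data known. From family lists, up to 4 genes past the threshold per comparison with the smallest p and the most abundant gene are named, with up to 3 tested neighbours a side within 250000 bases. Other genes were chosen after their values were seen. Positions are from GENCODE M21. Sums without Cd22 or Ccr9, and list calls with libraries left out, were added after seeing the data. Alternatives changed pseudocount, filter, scaling, trend, libraries and pairing. Some genes that the naming rule picks are not reported here.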

Additional observations from a re-analysis of the deposited data

Results flagged for a closer look

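For 4 genes the difference from N was not the same in the 2 ICOS+ pools, by limma's test of ACT IL21 against ACT, with the limits given for these calls above. Rnf130, Atp8b4 and Tlr7 had log2 fold changes of ACT IL21 over ACT of -2.51, -3.54 and -2.90, each low in the reporter-positive pool. Rnf32 had 3.24, low in the reporter-negative pool. No pool has enough libraries for a single library to be called distant from the rest.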

How the results depend on the processing

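Against N, the log2 fold changes of the 8 genes kept their sign in all 112 alternatives for ACT IL21 and in 108 of 112 for ACT, where Atp8b4, close to 0, ranged from -0.33 to 0.38. In ACT IL21 against ACT the sign was kept in 109 of 112, and the exceptions, all with 1 library left out, were of Pdlim4 (-0.36, in a range of -0.36 to 0.79 with 1 library left out) and Amigo2 (0.29 and 0.10, in a range of -0.40 to 0.29), which were not called. Of the 8 genes 4 were called there, 4 with the replicate block, 2 with only the 2 pools compared and 0 to 3 with 1 library left out. Without ACT IL21 replicate 1, and without replicate 2, 0 were called by limma's adjusted p, while 4 and 5 of the 8 had an unadjusted p below 0.05. The Rnf32 call also ended with a pseudocount of 0.1 (adjusted p = 0.0624), without the filter (0.0767), without the intensity trend (0.0542) and with only the 2 pools (0.0945), where the Tlr7 call ended too (0.0728). Genes called overall were 259, 677 and 743 in ACT IL21 against ACT, ACT IL21 against N and ACT against N. Without the filter they were 124, 410 and 469, and with only the 2 pools compared 92, 715 and 417. With 1 library left out they ranged from 0 to 81, 75 to 728 and 205 to 526, and the 0 (without ACT IL21 replicate 1) stands beside 1631 genes at an unadjusted p below 0.05. A fit that leaves out 1 library assumes that the lone library varies like the other pools. The replicate block gave 284, 732 and 784. Same-numbered libraries deviated from their pool means with correlations of 0.000782 (ACT IL21 and ACT), -0.004 (ACT IL21 and N) and 0.21 (ACT and N). These values do not decide whether the numbers pair the samples. The main fit left pairing out because the labels do not say what a number shares. Depth is unknown, so levels under 1 TPM, such as Tlr7 in ACT IL21, cannot be told from 0.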

Other observations

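The genes next to the 8 genes on the chromosome mostly did not share their pattern. Of 29 tested neighbours within 250000 bases, up to 3 on each side or overlapping, 1 fell and 1 rose in ACT IL21 against N (beside 1.26% lower and 3.82% higher over all genes), and 1 fell and 3 rose in ACT against N (beside 1.43% and 4.15%). The one that fell in both was Ccr7, a receptor gene that guides naive T cells into lymph nodes, 89804 bases from Igfbp4, at 122 TPM in ACT IL21, 72.5 in ACT and 342 in N (log2 fold change -1.44, adjusted p = 0.0322, and -2.22, adjusted p = 0.00448). These Ccr7 calls ended without N replicate 1 in ACT (adjusted p = 0.0589) and without either library of ACT IL21 or of N in ACT IL21 (up to 0.259). On the other side of Igfbp4, 17055 bases away, the cell cycle gene Top2a rose in both, at 54.2 TPM in ACT IL21, 37.6 in ACT and 8.90 in N, and the ACT IL21 call ended without either ACT IL21 library (up to 0.0567).

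Csf2, the gene of the cytokine GM-CSF, lies 178257 bases from Pdlim4. It was listed at 0 in both ACT IL21 libraries and averaged 8.18 TPM in ACT and 0.155 in N (2.98 for ACT over N, adjusted p = 0.00876, but up to 0.114 without either N library). Gm8817, a noncoding RNA gene 234549 bases from Tlr7, was at 1.44 TPM in ACT IL21, 22.7 in ACT and 3.43 in N (2.51 for ACT over N, adjusted p = 0.0424, but up to 0.302 with 1 library left out). Both were lower in ACT IL21 than in ACT (-3.18, adjusted p = 0.0158, and -3.42, adjusted p = 0.0255), calls that ended with any 1 library left out. Pced1b, which overlaps Amigo2 on the opposite strand, was at 48.3 TPM in ACT IL21, 29.2 in ACT and 63.0 in N and did not pass. Prps2, 15764 bases from Tlr7, was at 63.1, 78.0 and 90.9 TPM in ACT IL21, ACT and N and did not pass. The vimentin gene Vim, 68195 bases from St8sia6, was at 269, 178 and 177 TPM in ACT IL21, ACT and N and did not pass.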
